A study of Mus musculus with 6 samples.

Results

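The transcripts of 5 protein kinase C (PKC) isoforms, Prkca, Prkcb, Prkcd, Prkce and Prkcz, were followed in the ageing mouse cerebral cortex. These isoforms were taken by gene symbol, with earlier results of these data known. They are 5 of the 55421 genes with a count and a TPM value in each library. The cortices came from male wild-type (WT) C57BL/6J mice, 3 of them 6 months old (mice 10, 11 and 17) and the other 3 aged 24 months (mice 2, 4 and 5). All 6 mice had received the same diet and isoflurane for anesthesia, and the labels give no further allele or treatment. The groups differed in age by the labels, which name no dissection, extraction or library batch. Each library came from the powdered cortex of 1 mouse, all cell types together, and held between 29495379 and 36494240 counts on genes. The ages also stood apart as libraries: 33974 to 35651 genes had a count at 6 months and 40208 to 43561 at 24 months, and the TMM factors that scale the counts were 0.921 to 0.946 and 1.04 to 1.10. The part of this in the results below was not tested, and values under other scalings are given beside them. In bulk tissue, fewer cells of a type and less RNA per cell cannot be told apart.

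PKC enzymes are serine/threonine kinases that carry signals from receptors at the membrane. Receptors coupled to Gq proteins activate phospholipase C, which cleaves a membrane lipid into diacylglycerol and inositol trisphosphate, and the latter releases calcium. Conventional isoforms such as alpha and beta respond to calcium and diacylglycerol, calcium-independent isoforms (delta, epsilon, eta and theta) to diacylglycerol alone, and atypical isoforms (zeta and iota) to neither. In neurons the family is known for roles in transmitter release, receptor trafficking and synaptic plasticity. An enzyme of this family is switched on by lipid, calcium and phosphorylation, none of which a transcript count measures.

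The 5 genes lie on 5 chromosomes (GRCm38, GENCODE vM21). Prkca spans chr11:107933387-108343928 on the minus strand, Prkcb chr7:122288751-122634402 on the plus strand and Prkcd chr14:30595354-30626210 on the minus strand. Prkce spans chr17:86167785-86657919 on the plus strand and Prkcz chr4:155260129-155361361 on the minus strand. A deposited value adds all transcripts of a gene. For Prkcb, this puts together the beta I and beta II forms, which differ in their last exon. For Prkcz, it puts together 2 products with separate promoters. Transcript Prkcz-201 starts at position 155361361 and encodes the full kinase of 592 codons, whereas Prkcz-202 starts inside the gene at 155345772 and encodes 409 codons. The shorter product, known as PKM zeta, lacks the regulatory part of the enzyme and has been studied for its role in memory. Promoter sequences from RefSeq (GRCm38.p6), 250 bases before and 30 bases after the RefSeq start site, are shown for both Prkcz promoters because the gene value cannot separate them, and for Prkcb and Prkcd because these had the highest and the lowest level of the 5 genes. The RefSeq start sites lie 67 and 17 bases from the GENCODE starts of Prkcz-201 and Prkcz-202, 172 bases from that of Prkcb-202 and 0 bases from that of Prkcd-208.
Prkcz, full kinase, chr4:155361399-155361678, minus strand: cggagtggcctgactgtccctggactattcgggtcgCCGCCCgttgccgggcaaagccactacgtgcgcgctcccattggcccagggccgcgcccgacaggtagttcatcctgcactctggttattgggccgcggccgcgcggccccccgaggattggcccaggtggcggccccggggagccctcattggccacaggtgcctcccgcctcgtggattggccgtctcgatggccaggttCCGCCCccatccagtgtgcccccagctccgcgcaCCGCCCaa
Prkcz, PKM zeta, chr4:155345760-155346039, minus strand: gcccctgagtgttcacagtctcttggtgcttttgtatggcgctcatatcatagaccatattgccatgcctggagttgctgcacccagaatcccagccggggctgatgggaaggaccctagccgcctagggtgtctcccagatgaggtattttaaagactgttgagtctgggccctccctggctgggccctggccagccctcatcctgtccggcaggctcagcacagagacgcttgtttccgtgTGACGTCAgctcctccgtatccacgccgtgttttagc
Prkcb, chr7:122288875-122289154, plus strand: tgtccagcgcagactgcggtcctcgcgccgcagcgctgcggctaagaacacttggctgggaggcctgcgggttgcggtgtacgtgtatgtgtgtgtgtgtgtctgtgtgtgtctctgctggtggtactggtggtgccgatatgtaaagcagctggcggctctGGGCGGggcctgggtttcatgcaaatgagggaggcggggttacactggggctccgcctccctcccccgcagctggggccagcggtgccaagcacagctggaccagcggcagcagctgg
Prkcd, chr14:30626179-30626458, minus strand: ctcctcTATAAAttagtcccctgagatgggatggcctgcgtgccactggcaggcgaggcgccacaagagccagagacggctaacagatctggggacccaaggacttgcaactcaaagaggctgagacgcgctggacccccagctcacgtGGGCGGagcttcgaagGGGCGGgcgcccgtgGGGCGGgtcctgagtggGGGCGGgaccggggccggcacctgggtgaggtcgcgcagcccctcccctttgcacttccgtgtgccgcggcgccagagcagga

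Capitals mark the cyclic AMP response element (TGACGTCA), the GC box (GGGCGG) and the letters TATAAA, searched on both strands. The PKM zeta window held a cyclic AMP response element, whose first base lies 7 bases before the RefSeq start site, and it held no GC box. This element is found in 1.74% of 32851 such windows of 27025 genes. The window of the full Prkcz kinase differed in all of these respects, with 3 GC boxes, no cyclic AMP response element and 28 CpG dinucleotides, against 10 in the PKM zeta window. Prkcd had 4 GC boxes, and Prkcb 1. TATAAA was found in the Prkcd window, 244 bases before the start site and so not where a TATA box lies. GC boxes occur in 34.7% of all windows and TATAAA in 13.1%. The median window holds 6 CpG dinucleotides, and the windows of Prkcb and Prkcd held 18 and 22. RefSeq windows were matched for 4 of the 5 genes, Prkce not among them, and those of Prkca and of a further start site of Prkcz and of Prkcd are not shown.

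The order of the 5 genes, compared on the length-corrected TPM scale, was the same in all 6 cortices: Prkcb, Prkce, Prkcz, Prkca and then Prkcd. No neighbours in this order overlapped within an age. Prkcb, a conventional isoform abundant in forebrain neurons, was measured at 280.6, 507.2 and 562.4 TPM in the 6-month-old mice 10, 11 and 17. In the 24-month-old mice 2, 4 and 5 it was at 395.1, 479.6 and 567.3 TPM, so the ages overlapped. By mean TPM over the 6 cortices it ranked 288 among all genes. Prkce, a calcium-independent isoform known from presynaptic terminals and from the response to ethanol, was at 169.7, 176.4 and 163.5 TPM at 6 months and at 144.3, 151.9 and 151.3 TPM at 24 months. All 24-month-old mice lay below all 6-month-old mice. Prkcz, the atypical isoform described above, was at 122.6, 123.4 and 116.7 TPM in the younger and 113.0, 111.9 and 118.0 TPM in the older mice. Here mouse 5 exceeded mouse 17 by a little and the ages overlapped. Prkca, the conventional isoform found in most tissues, was at 33.8, 36.5 and 35.8 TPM at 6 months and 36.3, 33.0 and 41.5 TPM at 24 months. The highest and the lowest Prkca level were both in older mice. Prkcd, a calcium-independent isoform known for a role in cell death, was scarce in cortex, with 4.11, 4.18 and 4.72 TPM at 6 months and 4.79, 6.15 and 5.31 TPM at 24 months. Its older mice all lay above its younger mice on this scale, by a narrow margin between mice 17 and 2. Its 201 to 310 counts per library make it the least precisely counted of the 5 genes, against 18942 to 39994 counts for Prkcb.

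**Figure D1:**
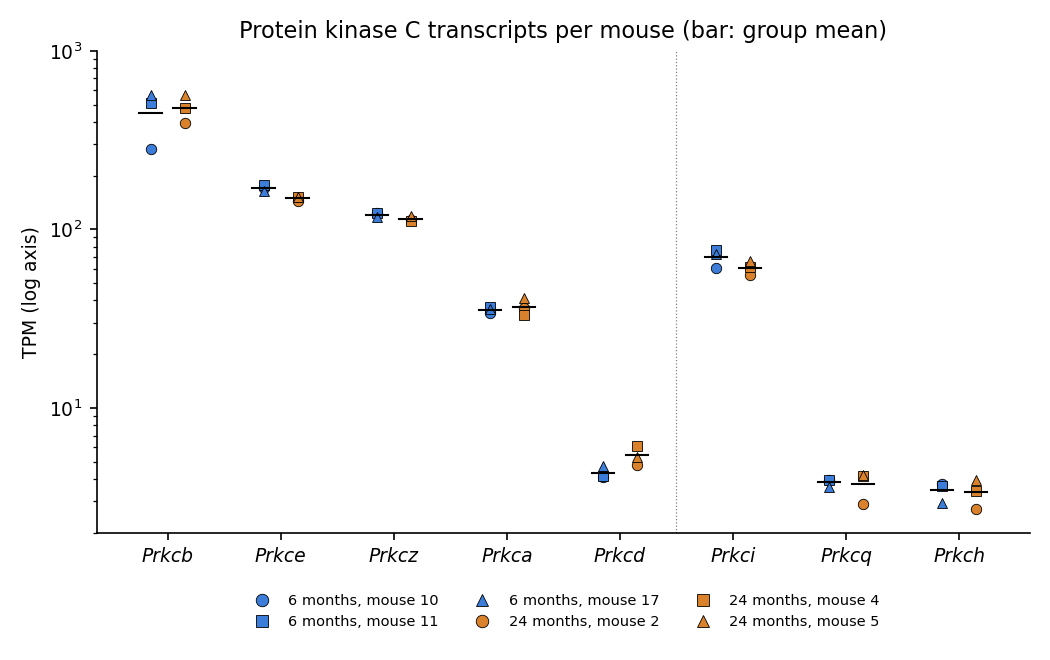
TPM of the PKC isoforms (log axis) in each mouse, with 6-month-old mice in blue, 24-month-old mice in orange and the group mean as a bar; the 5 isoforms described are left of the dotted line. Prkcb in mouse 10 lies at 280.6 TPM, away from the 507.2 and 562.4 TPM of the other 6-month-old mice, and Prkce separates the ages.

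Whether age changed these transcripts was tested on the deposited counts, scaled by TMM, with edgeR's quasi-likelihood test over 32905 genes and Benjamini-Hochberg adjustment. Of the 5 isoforms, Prkce fell and the other 4 did not pass at 10% FDR. Over all genes tested, 18.4% passed at this threshold in either direction. Among the 15793 genes with a mean of at least 1 CPM (counts scaled to a common library size with TMM), to which all 5 belong, 17.3% passed as lower and 2.47% as higher. The share of members called, 1 in 5, is therefore near the background. At the 1% FDR of the study none of the 5 passed with the quasi-likelihood test, with edgeR's likelihood ratio test or with DESeq2, and 0% of all genes passed with the first of these. At an unadjusted p under 0.05, 2 of the 5 passed (Prkce and Prkcz), against 30.7% of all genes. The likelihood ratio test called 1703 of all genes at 1% FDR and DESeq2 called 227.

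Prkce was measured at 352.7, 362.0 and 337.0 CPM in the 6-month-old mice and at 275.1, 289.9 and 288.7 CPM in the 24-month-old mice. The groups were tight and did not overlap, as was the case, in the lower direction, for 32.4% of the genes of at least 1 CPM (17.2% on the TPM scale). The log2 fold change of 24 against 6 months was -0.30 (SE 0.08, 95% interval -0.48 to -0.12), so that the level fell by 18.8%, with an adjusted p of 0.0624 in edgeR's quasi-likelihood test. The call was lost without any mouse but 1: adjusted p was 0.158, 0.290, 0.101, 0.131 and 0.172 without mouse 10, 11, 17, 2 or 4 (log2 fold changes of -0.30, -0.24, -0.33, -0.27 and -0.31), and 0.0503 without mouse 5. Few genes could pass in some of these fits. The smallest adjusted p of any gene was 0.145, 0.0666 and 0.166 without mouse 10, 11 or 4. In those fits 0, 1 and 0 of all genes were called, against 7998 without mouse 5. Over these and the other alternatives the adjusted p of Prkce ranged from 0.0503 to 0.379, and its fold change was negative in 14 of 14 settings. Its size depended on the scaling between the libraries. With library totals in place of TMM it was -0.11, and with TMM computed on genes of at least 1 CPM it was -0.15. The median gene of at least 1 CPM itself had a log2 fold change of -0.14, and Prkce lay 0.16 below that median on the log2 scale. Prkce shares 472 exonic bases with a same-strand feature, AC154542.1, which had 18 to 76 counts per library against 8925 to 12496 for Prkce.

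Some markers of neurons were lower together with Prkce. Of 8 neuronal markers all 8 were fitted lower, with a median log2 fold change of -0.28 beside the -0.14 of all genes of at least 1 CPM, and 2 fell, Syt1, the calcium sensor of vesicle release, at a log2 fold change of -0.40 (adjusted p = 0.0652, edgeR) and Tubb3, a neuronal tubulin, with -0.36 (adjusted p = 0.0546). Slc17a7, the vesicular glutamate transporter of cortical neurons, had a log2 fold change of -0.06 (adjusted p = 0.703), and it, Gad1, Gad2 and Nefl overlapped between the ages on the CPM scale. The summed level of the 8 was 10352, 9146 and 8874 CPM at 6 months and 6572, 7660 and 8644 CPM at 24 months, without overlap on this scale, and no marker was at 0. Much of this sum was Snap25, a protein of vesicle fusion, at 4837 to 5796 CPM at 6 months and 3561 to 4714 CPM at 24 months. In TPM Snap25 overlapped between the ages, at 2516 to 2982 at 6 months and 1997 to 2641 at 24 months. Of the 8 markers Tubb3 alone separated the ages in TPM. Measured in each library against the mean log2 level of these markers, a comparison chosen after the values were seen, Prkce differed by -0.04 between the ages and the groups overlapped (exact permutation test, two-sided, p = 0.8). Measured in this way Prkcz differed by 0.07 and overlapped as well (exact permutation test, p = 0.7). Prkcd differed by 0.47, and its older mice all lay above its younger mice (exact permutation test, p = 0.1, the smallest that 3 mice against 3 allow). The mean log2 level of the markers itself differed by -0.26 between the ages, which shifts every gene measured in this way upwards. On the CPM scale Prkcd had a log2 fold change of 0.21 and overlapped between the ages. The share of all genes that separate when measured against the markers was not computed. The summed CPM of astrocyte and microglia markers lay at 3331 to 3496 and 348 to 367 at 6 months, and at 3424 to 3524 and 342 to 366 at 24 months. These sums overlapped between the ages, whereas single markers moved in both directions. Of the 6 astrocyte markers 4 were fitted lower, with a median log2 fold change of -0.12, among them the water channel Aqp4 at -0.40 (adjusted p = 0.102, edgeR), and Gfap, a filament protein, rose by 0.69 on the log2 scale (adjusted p = 0.0738). Gfap was at 131, 174 and 166 CPM at 6 months and 290, 307 and 164 CPM at 24 months, with mouse 5 among the younger mice. In TPM its older mice all lay above its younger mice. Of the 7 microglial markers Tmem119 rose and Csf1r fell (0.34 and -0.34, adjusted p of 0.0684 and 0.0646, edgeR). The part of these markers in the Prkce result was not tested.

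Prkcz was at 221.8, 220.4 and 209.3 CPM in the younger and 187.5, 185.9 and 195.9 CPM in the older mice, so that the groups separated on this scale, unlike on the TPM scale. The log2 fold change was -0.19 (SE 0.08, 95% interval -0.38 to -0.01), and the adjusted p of 0.144 did not pass (edgeR, quasi-likelihood test). It was negative in 14 of 14 settings but reached -0.002 with library totals. A loss by as much as 0.38 on the log2 scale remains within the interval. Prkcz has a processed pseudogene, Prkcz2, on chromosome 7, with 29 to 42 counts per library against 6082 to 7607 for Prkcz.

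Prkca gave a log2 fold change of -0.05 (SE 0.10, 95% interval -0.28 to 0.18, adjusted p = 0.760, edgeR). Its levels of 87.1, 92.8 and 91.4 CPM at 6 months lay within the 85.7, 78.0 and 98.0 CPM of the older mice. The sign of so small a difference turned with the scaling, to 0.14 with library totals and 0.10 with TMM on genes of at least 1 CPM. Prkcd, in contrast, had a positive log2 fold change of 0.21 (SE 0.15, 95% interval -0.12 to 0.53, adjusted p = 0.352, edgeR), positive in 14 of 14 settings and past the threshold in none. Its levels were 6.52, 6.55 and 7.42 CPM at 6 months and 6.97, 8.96 and 7.73 CPM at 24 months, where mouse 17 exceeded mouse 2. The separation of the ages seen in its TPM values is shared, in the higher direction, by 10.1% of the genes of at least 1 CPM (5.43% on the CPM scale). Prkcd is also strongly expressed in thalamus. The summed CPM of 8 thalamic markers was 122.4, 154.7 and 120.0 at 6 months and 122.3, 123.1 and 110.2 at 24 months. None of these markers rose at 10% FDR, and Slc17a6, a vesicular glutamate transporter, fell, with all older mice lower and a log2 fold change of -1.03 (adjusted p = 0.0825, edgeR). Tcf7l2, a transcription factor of the thalamus, had a log2 fold change of 0.16 (adjusted p = 0.339), and its older mice all lay above its younger mice in TPM. The part of these markers in the Prkcd values was not tested.

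**Figure D2:**
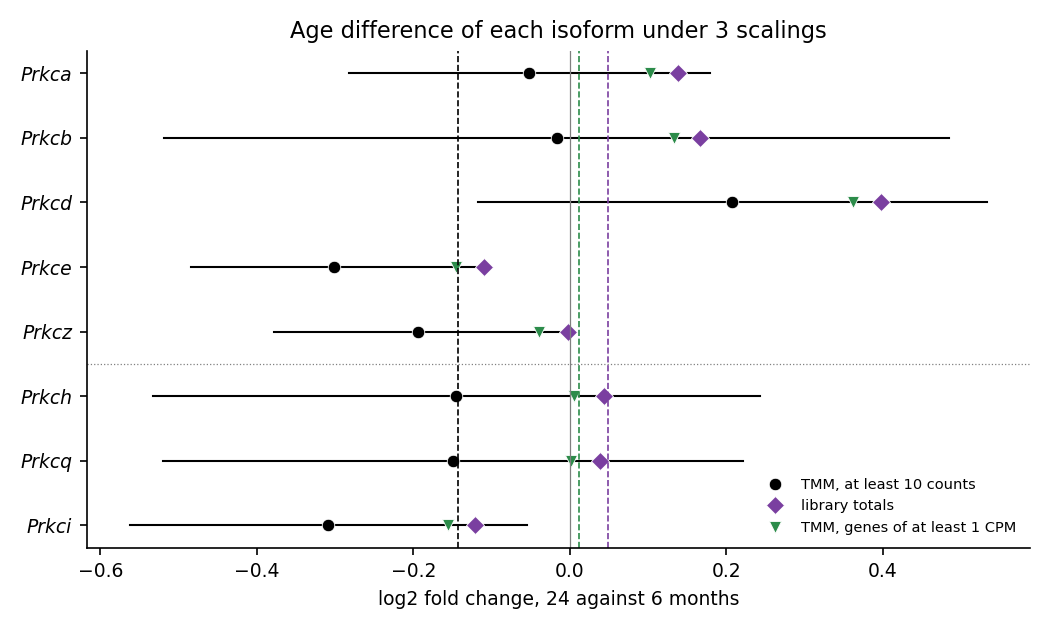
Log2 fold changes of 24 against 6 months for the 5 isoforms (above the dotted line) and 3 others (below), with TMM and its 95% interval in black, library totals in purple and TMM on genes of at least 1 CPM in green; dashed lines mark the median gene of at least 1 CPM under each. Prkce, Prkcz and Prkci lie left of the median line and Prkca, Prkcb and Prkcd right of it under all 3 scalings, with Prkch and Prkcq close to it.

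Prkcb varied more between mice of an age than between ages. It was at 614.5, 1097 and 1222 CPM in mice 10, 11 and 17 and at 793.5, 964.5 and 1141 CPM in mice 2, 4 and 5. The log2 fold change was -0.02 (SE 0.22, 95% interval -0.52 to 0.48, adjusted p = 0.971, edgeR), an interval wide enough to hold a change of the size seen for Prkce in either direction. Mouse 10 stood apart, with Prkcb at 0.530 of the mean of the other 6-month-old mice. Of the 15793 genes of at least 1 CPM, 524 (3.32%) were at or below this ratio in mouse 10. Without mouse 10 the log2 fold change was -0.26 (SE 0.15, adjusted p = 0.319), and without mouse 17 it was 0.18. Prkce and Prkcz in mouse 10 were at 1.01 and 1.03 of the mean of the other 6-month-old mice, and Prkca and Prkcd at 0.945 and 0.934.

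Mouse 10 was also the lowest in a sum of reads on features outside the exons of Prkcb. Within Prkcb introns lie 5 provisionally annotated features of the same strand that share 0 exonic bases with it (Gm45191, Gm44664, Gm44663, Gm44745 and Gm44746). They were singled out after the Prkcb values were seen. Together they had 9.05, 13.8 and 14.9 CPM in mice 10, 11 and 17 and 16.1, 12.4 and 16.8 CPM in mice 2, 4 and 5. Mouse 10 was the lowest of the 6, at 0.631 of the mean of the other 6-month-old mice. The other mice did not keep the order they had for Prkcb. Mouse 2, second lowest for Prkcb at 793.5 CPM, was second highest here. How many features of so few counts are as low in mouse 10 was not computed. The features differed, with a ratio of 0.432 for Gm44745 and 1.03 for Gm44663, and their 13 to 240 counts per library are few.

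**Figure D3:**
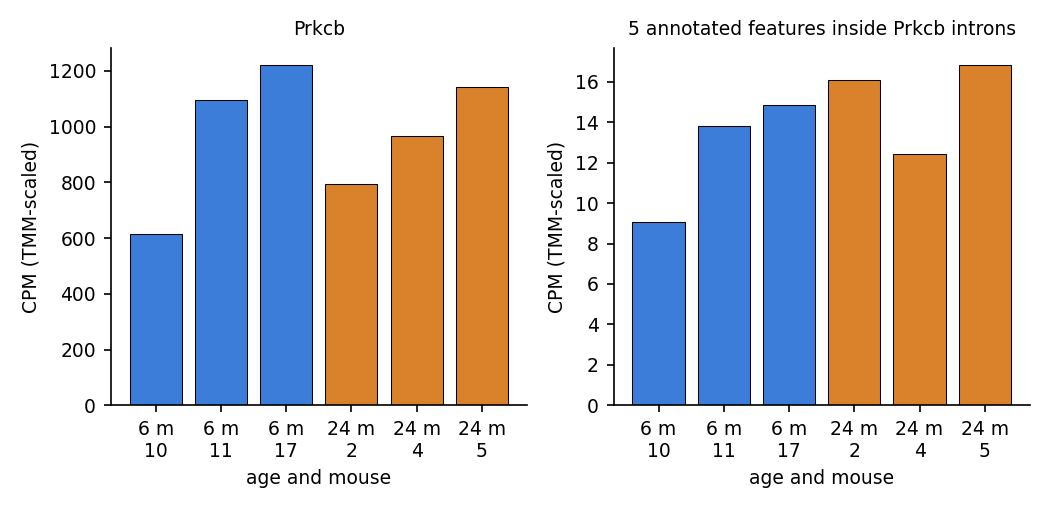
TMM-scaled CPM of Prkcb (left) and of 5 annotated features within its introns, summed (right), in each mouse, with 6-month-old mice in blue and 24-month-old mice in orange. Mouse 10 is the lowest in each panel, at 614.5 and 9.05 CPM.

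Ratios between isoforms in the same library do not depend on how libraries are scaled to each other. Of the 10 ratios among the 5 genes, 3 separated the ages. These were the ratios among Prkcd, Prkce and Prkcz. Any of them follows from the others, so they are not 3 separate observations. The share of other gene pairs whose ratio separates the ages was not computed. The log2 ratio of Prkcd to Prkce in TPM was -5.37, -5.40 and -5.12 in the 6-month-old mice and -4.91, -4.63 and -4.83 in the 24-month-old mice. It was higher by 0.50 in the older mice, all of which lay above all younger mice. The log2 ratio of Prkcd to Prkcz was -4.90, -4.88 and -4.63 at 6 months and -4.56, -4.19 and -4.48 at 24 months, higher by 0.40. For Prkce to Prkcz it was 0.47, 0.52 and 0.49 in the younger and 0.35, 0.44 and 0.36 in the older mice. This last difference, of -0.11, was small, but the spread within each age was smaller still. Each of the 3 had an exact permutation p of 0.1 (two-sided), the smallest that 3 mice against 3 allow, and an adjusted p of 0.333 over the 10 ratios. In the remaining 7 ratios the ages overlapped. Prkca to Prkce, for instance, differed by 0.24 (exact permutation p = 0.2), with mouse 4 among the younger mice. The 4 ratios with Prkcb all carried the low value of mouse 10.

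**Figure D4:**
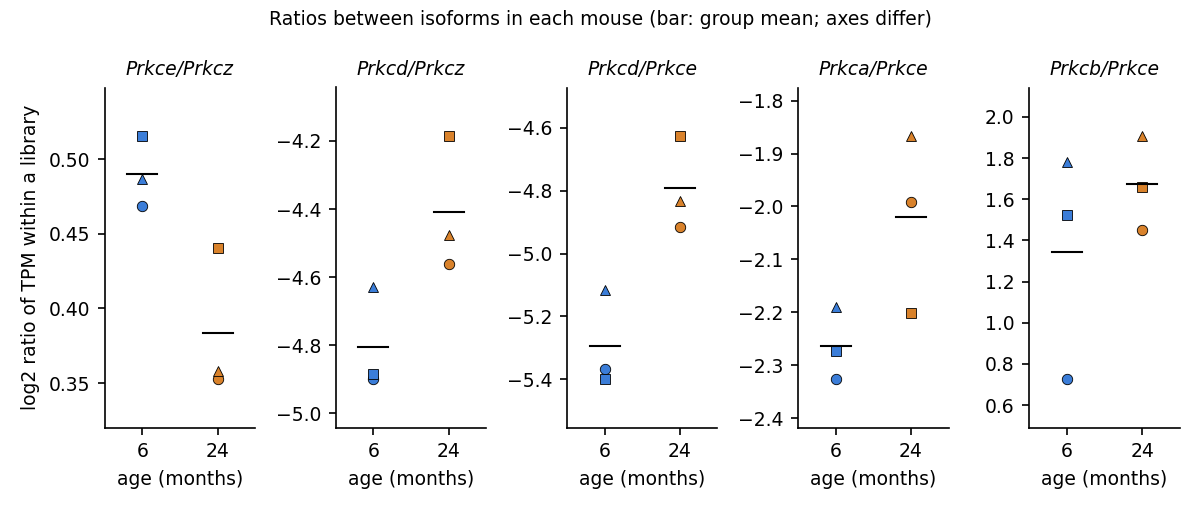
Log2 ratio of the TPM values of 2 isoforms in each mouse, by age, with the mean of each age as a bar and a separate axis per panel. The ages do not overlap for Prkce/Prkcz, Prkcd/Prkcz and Prkcd/Prkce, whereas they overlap for Prkca/Prkce and Prkcb/Prkce.

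Further members of the family gave the 5 genes their place. Prkci, the other atypical isoform, had a log2 fold change of -0.31 (adjusted p = 0.108, edgeR). The calcium-independent isoforms Prkch and Prkcq, at 2.73 to 3.97 and 2.90 to 4.19 TPM, were as scarce as Prkcd, and their log2 fold changes of -0.15 and -0.15 turned to 0.04 and 0.04 with library totals. Prkcb made up 51.4% ± 8.95 (SD, n = 3) of the summed TPM of these 8 isoforms at 6 months and 56.0% ± 3.44 (SD, n = 3) at 24 months. The shares overlapped between the ages, as did those of Prkce, at 20.3% ± 4.18 and 17.6% ± 1.68, and of Prkcz, at 14.5% ± 3.16 and 13.5% ± 1.36 (SD, n = 3 each). Prkca made up 4.21% ± 0.678 at 6 months and 4.34% ± 0.468 at 24 months, and Prkcd 0.515% ± 0.0812 and 0.637% ± 0.0843 (SD, n = 3 each), again with overlap. All 5 shares carry the low Prkcb value of mouse 10, in which the shares of the other 4 genes were the highest or, for Prkcd, the third highest of the 6.

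Among genes of at least 1 CPM, those whose log2 CPM followed each isoform most closely over the 6 cortices were picked out as a description. Prkce was followed by Pwp1, Spin1 and Mrm1 (Pearson r of 1.00, 0.999 and 0.999, n = 6 mice), and Prkcz by Zfp277, Tro and Edrf1 (0.998, 0.998 and 0.997). All 6 of these genes had negative fold changes, from -0.24 for Zfp277 to -0.70 for Edrf1. Prkcb was followed by Glt1d1, Zfp365 and Foxk1 (0.997, 0.996 and 0.994), each of them lowest in mouse 10. For Prkca they were Siglech, Gm26789 and Sorbs2os (0.990, 0.985 and 0.975), and for Prkcd Lmntd1, Ajuba and Fkbp10 (0.988, 0.985 and 0.982). The search covered 15792 genes with 6 points that share libraries and scaling, so high values are bound to occur. Between members, Prkce and Prkcz had an r of 0.965 and Prkce and Prkcb one of -0.03.

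The pathway around these kinases was read from 67 genes in 8 lists, all of which were tested. Of these 67 genes 12 fell at 10% FDR (17.9%), a share near the 17.3% of all genes of at least 1 CPM that passed as lower, and 0 rose, against 2.47% of those genes, and none rose with edgeR's likelihood ratio test or DESeq2. Before adjustment, 21 of them had a p under 0.05 as lower and 0 as higher. Their median was -0.15 on the log2 scale, beside -0.14 for all genes of at least 1 CPM, so that the pathway as a whole stood close to the background.

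Upstream of the kinases, none of the 4 Gq class G proteins passed, nor did any have an unadjusted p under 0.05. Gnaq, the main such protein in brain, had a log2 fold change of -0.14 (adjusted p = 0.323, edgeR) and Gna15 one of 0.30 (adjusted p = 0.245). Of 12 phospholipases C, 1 fell. This was Plcb1, the isoform that serves muscarinic and metabotropic glutamate receptors in cortex, at 141.2, 134.2 and 118.4 TPM at 6 months and 77.0, 90.6 and 124.7 TPM at 24 months. Its log2 fold change was -0.54 (SE 0.16, adjusted p = 0.0702, edgeR), and mouse 5 lay within the younger group on the TPM scale. Plcb4 was close to it at -0.53 but did not pass (adjusted p = 0.101).

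Diacylglycerol kinases, which end the lipid signal by turning diacylglycerol into phosphatidic acid, had 4 of 10 genes that fell, beside the 17.3% of all genes of at least 1 CPM. These were Dgkd, Dgkb, Dgke and Dgkq, with log2 fold changes of -0.42, -0.46, -0.37 and -0.41 (adjusted p of 0.0552, 0.0646, 0.0755 and 0.0947, edgeR). None of these 4 calls was kept with library totals, with filterByExpr, with genes of at least 1 CPM or without mouse 10, 11, 2 or 4, and without mouse 17 that of Dgkd alone was. In some of these settings hardly any gene was called. Over all genes tested, 0, 1 and 0 were called without mouse 10, 11 or 4. With genes of at least 1 CPM, 66 of 15793 were. Other proteins that bind diacylglycerol had 2 of 9. Rasgrp1, an activator of Ras, was at 539.8, 521.2 and 451.3 TPM at 6 months and 302.0, 380.5 and 436.9 TPM at 24 months, a log2 fold change of -0.55 (SE 0.14, adjusted p = 0.0562). Chn1, a chimaerin that acts on Rac, had a log2 fold change of -0.32 (adjusted p = 0.0686).

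Of 13 genes for the priming kinase, phosphatases and scaffolds 2 fell: Pdpk1, the kinase that phosphorylates the activation loop of PKC enzymes, by 0.27 on the log2 scale (adjusted p = 0.0968, edgeR), and Sqstm1, a scaffold of atypical isoforms, by 0.25 (adjusted p = 0.0843). The substrates of PKC had 3 of 10. Marcksl1, an actin-binding substrate, was at 203.4, 229.3 and 237.7 TPM at 6 months and 161.3, 143.8 and 104.3 TPM at 24 months, without overlap. Its log2 fold change was -0.82 (SE 0.15, adjusted p = 0.0518), the largest in size of the named pathway genes, and that of its relative Marcks was -0.41 (adjusted p = 0.0556). Add2, a protein of the membrane skeleton, had a log2 fold change of -0.37 (adjusted p = 0.0786). None of 6 PKC-related kinases passed, and 0 had an unadjusted p under 0.05. Smallest in p in that list were Pkn3, with a log2 fold change of 0.42, and Prkd3, with -0.11 (adjusted p of 0.299 and 0.651).

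All 12 genes that fell were fitted lower in every one of the 14 settings, but their calls depended on the setting. Of the 67 genes, 0 were called without mouse 10, 11 or 4, 1 without mouse 2, 3 without mouse 17 and 20 without mouse 5. Calls over all genes tested were 0, 1 and 0 without mouse 10, 11 or 4. They were 176 without mouse 2, 2476 without mouse 17 and 7998 without mouse 5. With library totals 1 of the 67 fell and 1 rose, against 318 and 4121 of all 32905 genes. With TMM on genes of at least 1 CPM none of them was called, against 66 of 15793 genes. Where pathway calls were lost with a mouse left out or with TMM on genes of at least 1 CPM, calls over all genes were lost too. Library totals differed from this. Over all genes, lower calls went from 2741 with TMM to 318 with library totals, and higher calls from 3299 to 4121. The summed CPM of neuronal markers, given above, was lower with these genes as well, and its part in the result was not tested. Snap25 is counted in that sum and is also among the substrates of PKC, so the comparison is in part of the same gene.

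**Figure D5:**
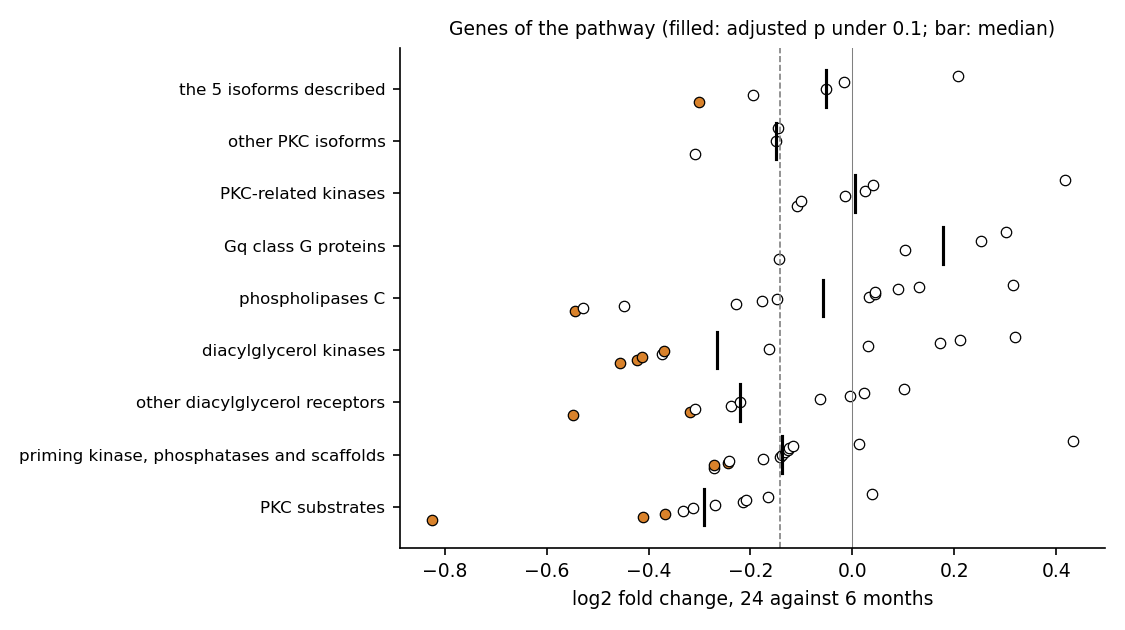
Log2 fold change of 24 against 6 months for each gene of the pathway lists and for the 5 isoforms, filled where the adjusted p is under 0.1, with a bar at the median of each list and a dashed line at -0.14, the median of genes of at least 1 CPM. Filled points, 1 isoform among the 5 and 12 of the 67 pathway genes, all lie below 0.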

How the data were processed

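RNA-seq of the cerebral cortex of 6 mice was analysed. Per the labels, the study's methods and the submitters' processing notes, the authors trimmed reads with Trim Galore 0.6.4, mapped them with STAR 2.7.3a to GRCm38 and counted them on exons with featureCounts of Subread 2.0.0 against GENCODE vM23. The deposited counts were whole numbers, although the stated counting options would give fractions, and no strand option was stated. The deposited TPM values were derived by the authors from those counts and each gene's length. Positions and transcripts here are those of GENCODE vM21, and promoters those of RefSeq.

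Counts were scaled by TMM and tested for age with edgeR 4.0.16 (R 4.3.3), quasi-likelihood test without covariates, on genes whose 6 counts summed to 10 or more; p-values were adjusted over all genes tested. The test was also run on simulated data, whose outcome is not given here, and no result rests on that run. Calls are given at 10% FDR, and at the study's 1% FDR. Ratios and shares were tested with exact permutation tests (scipy 1.17.1). Correlations used log2 CPM with a prior count of 2. Alternatives were the size factors and Wald test of DESeq2 1.42.0, library totals, the likelihood ratio test, 3 other filters and leaving out each mouse.

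The isoforms and gene lists were chosen with earlier results of these data known. The genes named are the 8 isoforms, the 2 genes of smallest p in each pathway list with any called up to 4 a list, and the 3 genes most alike to each member. Marker genes, features overlapping a member and the Prkcz pseudogene were singled out after their values were seen. Some genes are not reported here and are left out of the lists and sums. The labels number the mice and name no litter, day or batch. The p-values set the difference between the ages against the spread between these mice.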

Additional observations from a re-analysis of the deposited data

How the results depend on the processing

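Of the 5 isoforms only Prkce passed 10% FDR in any of the 14 settings with a test, and Prkcd, Prkce and Prkcz kept their sign in all of them. Prkce was not called with library totals (-0.11), edgeR's filterByExpr (-0.19), no filter (-0.26), genes of at least 1 CPM (-0.15), or in 5 of the 6 analyses that left out a mouse (-0.33 to -0.24 over all 6). Relative to the neuronal markers, where no adjusted p was computed, the difference of Prkce was -0.036. Prkca turned positive with library totals (0.14), filterByExpr (0.061) and genes of at least 1 CPM (0.10), and ranged from -0.14 to 0.029 with a mouse left out. Prkcb turned positive with these (0.17, 0.094 and 0.13) and with no filter (0.020), and ranged from -0.26 to 0.18 with a mouse left out. Relative to the neuronal markers, added after seeing the data, Prkca, Prkcb and Prkcz turned positive (0.21, 0.29 and 0.070) and Prkcd was higher by 0.47. The mean of these markers itself differed by -0.26, which shifts every gene upwards on this scale. With library totals and with genes of at least 1 CPM, Prkch (0.043 and 0.0058), Prkcq (0.039 and 0.0019), Prkd3 (0.077 and 0.041) and Gnaq (0.049 and 0.011) turned positive, as did Prkd3 with filterByExpr (0.0010). Without mouse 2, Prkcq (0.013; range -0.23 to 0.013) and Prkd3 (0.030; range -0.29 to 0.030) turned positive. Of all genes, 6040 were called at 10% FDR, 3048 with DESeq2, 1538 with filterByExpr, 4014 with no filter, 66 among genes of at least 1 CPM and 0 to 7998 with a mouse left out. Of the 67 pathway genes, 12 were called, 2 with library totals, 6 with DESeq2, 1 with filterByExpr, 7 with no filter, 0 among genes of at least 1 CPM and 0 to 20 with a mouse left out. The cause of these differences was not tested. No paired analysis was possible because the 2 ages are different mice and the labels name nothing that pairs them. With 3 mice an age, the 95% intervals reach from -0.52 to 0.48 for Prkcb and from -0.12 to 0.53 for Prkcd on the log2 scale, and the counts of Prkcd limit its precision.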

Other observations

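Immediate early genes, which neurons switch on within minutes of activity, differed widely between mice of the same age. The summed level of 8 such genes (Fos, Egr1 and Arc among them) was 2665, 3208 and 1567 CPM in the 6-month-old mice 10, 11 and 17 and 3273, 731 and 552 CPM in the 24-month-old mice 2, 4 and 5. Mouse 2 was thus the highest of the 6 and the other older mice were the lowest. None of the 8 passed at 10% FDR (edgeR), and 1 had an unadjusted p under 0.05. Markers of oligodendrocytes had summed levels of 2762, 3496 and 2227 CPM at 6 months and 1154, 2861 and 3835 CPM at 24 months, with the lowest level in mouse 2. Mouse 10, the mouse of the low Prkcb value, stood apart in neither list.

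Prkci was the isoform whose level in mouse 10 was the next lowest after that of Prkcb, at 0.818 of the mean of the other 6-month-old mice. Its share in the summed TPM of the 8 isoforms was 8.22% ± 0.664 at 6 months and 7.15% ± 0.193 at 24 months (SD, n = 3 each), and the ages did not overlap (p = 0.1 in an exact permutation test, which 3 mice against 3 cannot go below). It was picked out after the shares were seen, and the shares of the other isoforms overlapped. This share, too, carries the low Prkcb value of mouse 10, where it was the highest of the 6 at 8.89%.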
